A study of Mus musculus with 18 samples.

Results

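The 43 genes described here make the proteins of DNA replication and of mitosis. They were listed by symbol and taken as gene rows of the deposited count table, 43 of 27297 rows in all. No measured value entered the rule that matched symbols to rows, but the members were chosen with earlier results of these data known. Of these, 18 act in S phase and 25 act in G2 or mitosis (G2/M), and the sets are kept apart throughout. For 38 members the symbol had a row of its own, and 5 (Cdc6, Dut, Plk1, Cenpa and Hmmr) stood in rows that join several names. One of these rows joins Plk1 with Dctn5, a dynactin subunit gene, so its UMIs cannot be assigned to Plk1 alone.

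The samples were mouse myeloid cells from animals of strain CX3CR1-GFP+ C57BL/6J, in which green fluorescent protein reports the fractalkine receptor gene Cx3cr1. All groups share that reporter, none was treated, and single sorted cells were read by MARS-seq, a plate method that counts the 3′ ends of polyadenylated mRNA with unique molecular identifiers (UMIs). The groups were yolk sac at embryonic day 12.5 (4 libraries), brain at embryonic day 12.5 (4 libraries), brain at embryonic day 18.5 (6 libraries) and adult brain (4 libraries). Both E12.5 groups were sorted as CD45+CD11B+CX3CR1-GFP+ and the E18.5 and adult groups as CD45intCD11BintCX3CR1-GFP+, so the gate differs between stages. The age of the adult mice is not stated in the labels, and the deposited well table gives 1 subject number for each stage. The libraries came from 9 plates, with 2 libraries of the same group on each plate, and were counted as separate replicates. The p-values therefore measure the spread between libraries, which may be technical.

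As background, cells copy their DNA in S phase and divide it in mitosis. Before S phase, Cdc6 and Cdt1 load the MCM helicase (Mcm2 to Mcm7) onto replication origins, and Pcna, Lig1 and Fen1 then serve the replication fork while Rrm1, Rrm2, Tyms, Tk1 and Dut supply or cleanse nucleotides. After S phase, Cdk1 with cyclins B and A drives entry into mitosis, the kinases Plk1, Aurka and Aurkb direct the spindle and chromosomes, and Ube2c with Cdc20 serves the anaphase-promoting complex that ends it. Microglia are the resident macrophages of the brain; they descend from yolk sac progenitors and multiply within the embryonic brain.

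Of 3420 wells with 1 sorted cell, 3012 held at least 300 UMIs and were kept, namely 671 yolk sac, 718 brain E12.5, 992 brain E18.5 and 631 adult cells. Library totals were 269698 to 309084 UMIs for yolk sac, 228467 to 534219 for brain E12.5, 143876 to 217647 for brain E18.5 and 74562 to 99494 for adult brain, and the median cell held 1511, 1725, 983 and 521 UMIs in that order. Every library used the same 192 cell barcodes, which mark plate positions, and no well belonged to more than 1 library. The summed level of 13 microglia markers was 4475 to 5591 UMIs per 1000000 (CPM) in yolk sac and 48910 to 52070 CPM in adult libraries. Markers of other cells also differed: a list of 5 granulocyte precursor genes summed to 429 to 1546 CPM in yolk sac, 78.9 to 162 CPM in brain E12.5, 230 to 1267 CPM in brain E18.5 and 2495 to 9439 CPM in adult libraries, with none of the 5 at 0 in any group. Erythroid genes summed to 159 to 4071 CPM in yolk sac, 13.1 to 137 CPM in brain E12.5, 0 to 1333 CPM in brain E18.5 and 0 to 80.5 CPM in adult libraries. Their part in the results was not tested.

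The promoters of 5 members are shown first because S phase and G2/M genes differ in the motifs they hold, a property that the counts did not enter. E2F motifs are bound by the E2F family, which switches on genes at the start of S phase; the forms searched were TTCCCGC, then with other middle bases TTGCCGC, with a central CG pair TTCGCGC, and as the last form TTGGCGC. The CHR element, together with CCAAT boxes, marks promoters that are read late in the cycle. Windows ran from 250 bases before to 50 bases after each start site in the RefSeq promoter table (build GRCm38.p6), and 37 of the 43 members matched, 16 of S phase and 21 of G2/M. Shown are the S phase and G2/M members with the most UMIs whose windows hold the motif or motif pair, with Top2a added because the Plk1 row is shared. Capitals mark E2F motifs, on either strand and with overlaps allowed, in Mcm6 at chr1:128359656-128359955 (minus strand) and Mcm5 at chr8:75109259-75109558 (plus strand).
Mcm6: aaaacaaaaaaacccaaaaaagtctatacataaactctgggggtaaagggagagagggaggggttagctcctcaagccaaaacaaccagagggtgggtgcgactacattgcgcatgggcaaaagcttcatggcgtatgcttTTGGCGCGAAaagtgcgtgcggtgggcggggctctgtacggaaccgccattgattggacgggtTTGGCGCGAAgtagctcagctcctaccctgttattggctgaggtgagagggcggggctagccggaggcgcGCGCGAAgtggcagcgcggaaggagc
Mcm5: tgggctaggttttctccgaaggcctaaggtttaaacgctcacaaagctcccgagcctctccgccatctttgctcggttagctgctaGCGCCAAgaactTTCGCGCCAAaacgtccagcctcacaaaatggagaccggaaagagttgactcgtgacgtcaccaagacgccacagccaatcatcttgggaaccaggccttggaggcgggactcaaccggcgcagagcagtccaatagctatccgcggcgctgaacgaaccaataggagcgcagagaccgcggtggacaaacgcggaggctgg
In the next 3, capitals mark the CHR element (TTTGAA) and CCAAT boxes on either strand, in Ube2c at chr2:164769679-164769978 (plus), Plk1 at chr7:122159185-122159484 (plus) and Top2a at chr11:99024140-99024439 (minus).
Ube2c: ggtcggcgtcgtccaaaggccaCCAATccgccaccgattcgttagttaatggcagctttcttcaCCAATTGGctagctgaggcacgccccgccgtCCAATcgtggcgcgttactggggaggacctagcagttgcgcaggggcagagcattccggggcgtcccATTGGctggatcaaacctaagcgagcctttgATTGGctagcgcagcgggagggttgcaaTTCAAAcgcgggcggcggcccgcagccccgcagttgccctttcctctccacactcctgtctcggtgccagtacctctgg
Plk1: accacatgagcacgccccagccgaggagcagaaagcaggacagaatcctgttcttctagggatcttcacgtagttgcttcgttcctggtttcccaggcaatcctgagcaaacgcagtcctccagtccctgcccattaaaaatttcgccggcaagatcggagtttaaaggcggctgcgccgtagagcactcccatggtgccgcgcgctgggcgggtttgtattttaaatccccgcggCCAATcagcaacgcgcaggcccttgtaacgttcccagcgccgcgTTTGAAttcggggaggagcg
Top2a: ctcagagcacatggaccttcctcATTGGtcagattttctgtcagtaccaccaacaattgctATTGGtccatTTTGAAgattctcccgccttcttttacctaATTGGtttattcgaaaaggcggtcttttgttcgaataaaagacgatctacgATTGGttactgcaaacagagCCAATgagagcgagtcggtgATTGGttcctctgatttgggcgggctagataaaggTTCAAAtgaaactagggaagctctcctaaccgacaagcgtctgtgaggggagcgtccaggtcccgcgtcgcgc
An E2F motif stood in 9 of 16 S phase windows (56.2%), in 4 of 21 G2/M windows (19.0%) and in 2618 of 27025 windows of all genes (9.69%). The CHR element ran the other way, with 2 of 16 S phase windows (12.5%), 16 of 21 G2/M windows (76.2%) and 18.1% of all windows. A CCAAT box stood in 9 of 16 S phase windows, 18 of 21 G2/M windows (85.7%) and 37.9% of all windows. Both elements together stood in 1 of 16 S phase windows, in 15 of 21 G2/M windows (71.4%) and in 7.12% of all. Within 50 bases of the start site, a window chosen after the matches were seen, the CHR element was in 0 of 16 S phase and 15 of 21 G2/M members, against 4.92% of all genes. A match is a run of letters and does not show binding.

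The members' RNA was found in yolk sac and brain at E12.5 and in brain at E18.5, and was low in adult brain. Over all kept cells the members held 13394 UMIs, 5872 of S phase and 7522 of G2/M. Summed per library, the S phase members stood at 1536, 1539, 1608 and 1657 CPM in yolk sac, at 1635, 1649, 1885 and 2066 CPM in brain E12.5, at 974 to 1891 CPM with a median of 1109 in brain E18.5, and at 492, 571, 862 and 362 CPM in adult brain. All 4 adult libraries lay below every embryonic library. The yolk sac and brain E12.5 ranges overlapped, and E18.5 replicate 2, at 1891 CPM, lay within the brain E12.5 range. Replicates are numbered here in accession order. In summed libraries, fewer cells with these transcripts and less RNA per cell cannot be told apart.

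The G2/M members summed to 1987, 1731, 1566 and 1602 CPM in yolk sac, to 2452, 2314, 2048 and 2648 CPM in brain E12.5, to 1468 to 2429 CPM with a median of 1657 in brain E18.5, and to 643, 253, 613 and 148 CPM in adult brain. Every yolk sac library was below every brain E12.5 library in this sum, and every adult library was below every embryonic one. The ratio of the G2/M sum to the S phase sum averaged 1.09 ± 0.154 in yolk sac, 1.32 ± 0.178 in brain E12.5, 1.53 ± 0.406 in brain E18.5 and 0.717 ± 0.416 in adult brain (SD over 4, 4, 6 and 4 libraries). These ratios overlapped between neighbouring groups: the adult libraries ran from 0.407 to 1.31 and the E18.5 libraries from 0.820 to 2.06.

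**Figure D1:**
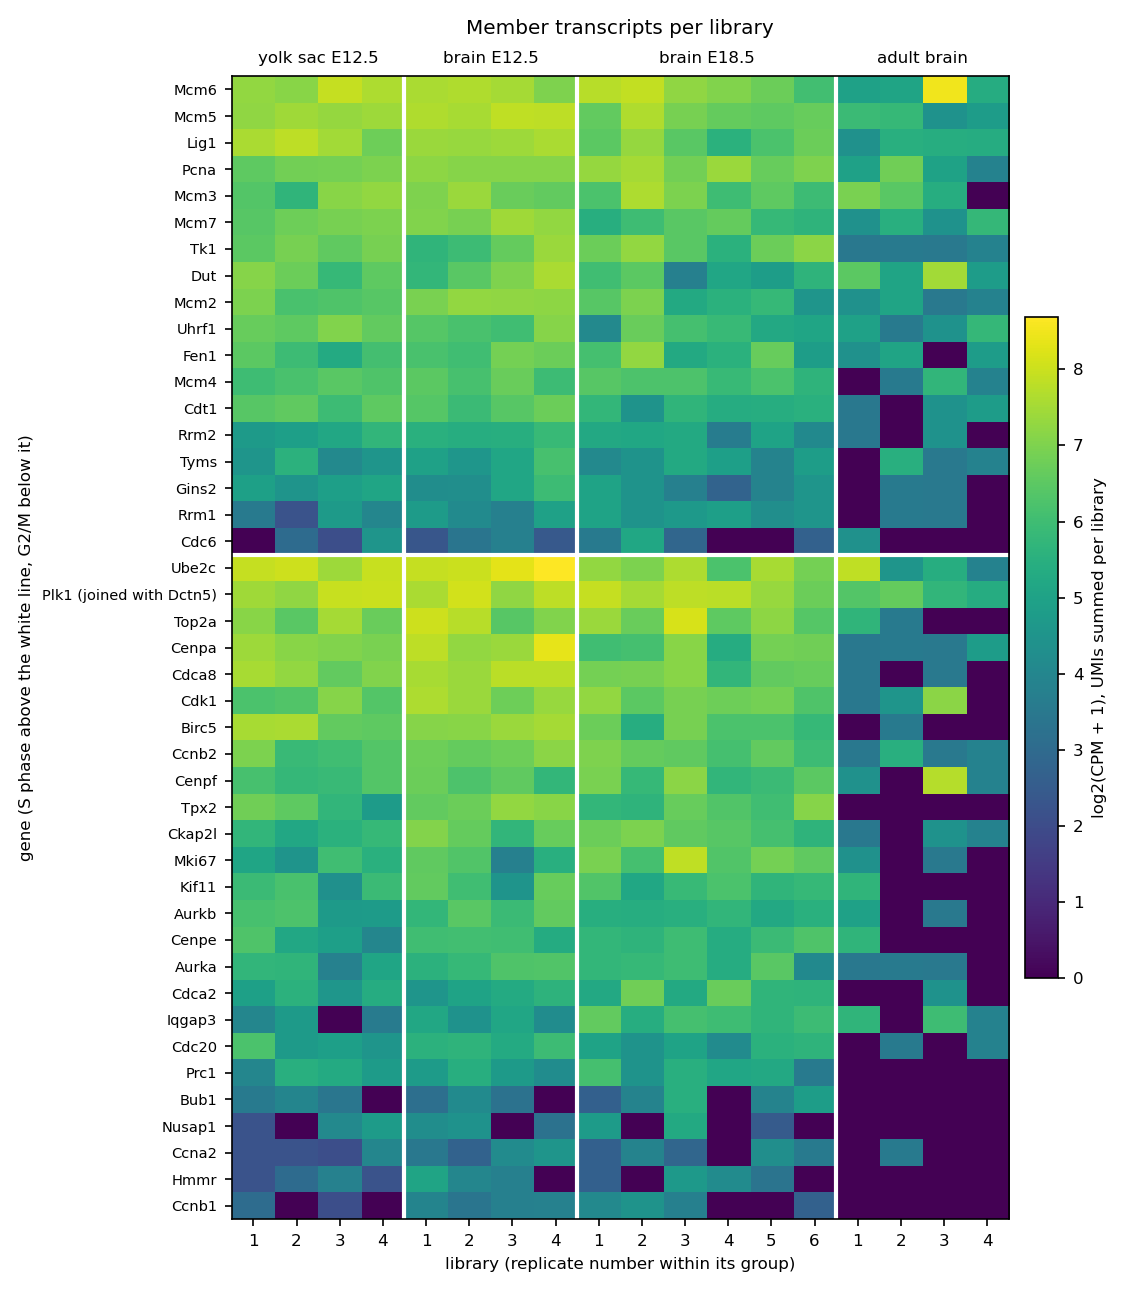
Level of each of the 43 members (rows, S phase above G2/M) in each of the 18 libraries (columns, grouped as yolk sac E12.5, brain E12.5, brain E18.5 and adult brain), as log2(CPM + 1) on the colour scale shown. Adult columns are lower than embryonic ones for most members and hold many entries at 0 among the G2/M rows, while Mcm6 at 364 CPM in adult replicate 3 and Ube2c at 231 CPM in adult replicate 1 stand out.

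Counted cell by cell at equal depth, cells with G2/M transcripts were on average most frequent in brain at E12.5, and cells with either set were rare in the adult. Each cell was thinned at random to 300 UMIs, and a cell was counted as positive for a set when at least 2 of those UMIs came from its members. S phase positive cells made up 9.12% ± 1.46 of yolk sac libraries, 10.3% ± 1.40 of brain E12.5, 7.27% ± 2.84 of brain E18.5 and 1.57% ± 0.590 of adult libraries (mean and SD, n = 4, 4, 6 and 4). G2/M positive cells made up 10.3% ± 2.64, 15.5% ± 1.84, 9.73% ± 3.25 and 0.942% ± 0.600 in the same order. Cells positive for either set made up 16.9% ± 2.77 in yolk sac, 23.7% ± 2.96 in brain E12.5, 15.3% ± 4.80 in brain E18.5 and 2.51% ± 0.948 in adult brain. The order of yolk sac and brain E12.5 in S phase was not stable: a second random draw gave 10.0% in yolk sac and 9.50% in brain E12.5, and a minimum of 3 UMIs gave 4.18% and 3.50%. The second draw gave 10.8, 15.3, 9.93 and 1.42% for G2/M. No p is given for these shares because the members were chosen with results known.

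Library by library, the share positive for either set was 15.7, 13.5, 19.4 and 18.9% in yolk sac, 20.5, 24.1, 22.7 and 27.6% in brain E12.5, 17.2, 19.3, 21.9, 11.0, 11.0 and 11.5% in brain E18.5, and 2.45, 2.53, 3.68 and 1.36% in adult brain. The yolk sac and brain E12.5 libraries did not overlap, and the adult libraries lay below all others. E18.5 replicate 3, at 21.9%, lay within the brain E12.5 range. Within E18.5 the libraries fell apart, since replicates 1 to 3 held 17.2% or more and replicates 4 to 6 held 11.5% or less; replicates 3 and 4 shared a plate, and all 6 were sequenced together. For G2/M alone the yolk sac values were 11.6, 7.06, 13.1 and 9.47%, against 14.1, 16.0, 14.0 and 17.8% in brain E12.5, again without overlap. E18.5 replicate 3, at 14.8%, lay within the brain E12.5 range here too. For S phase alone these groups overlapped, at 7.56, 8.24, 10.6 and 10.1% in yolk sac against 8.65, 10.2, 10.5 and 12.1% in brain E12.5. Within the only sequencing batch that held both E12.5 groups, yolk sac replicates 1 and 2 gave G2/M shares of 11.6 and 7.06%, against 14.0 and 17.8% in brain E12.5 replicates 3 and 4.

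Cells positive for both sets at this depth were few, with 17 in yolk sac, 15 in brain E12.5, 17 in brain E18.5 and 0 of 631 in adult brain, which allows an adult share of up to 0.475% for counting error. Without thinning, S phase positive cells made up 35.4, 53.2, 25.9 and 6.23% and G2/M positive cells 38.5, 54.6, 25.6 and 4.65% of yolk sac, brain E12.5, brain E18.5 and adult cells, so the adult group was lowest with and without thinning while the share itself follows depth. Cells with 5 or more member UMIs among 300 numbered 25 in yolk sac, 25 in brain E12.5, 31 in brain E18.5 and 0 in adult brain, where the highest cell held 3. The variance of the member count over its mean was 2.26, 1.95 and 2.43 in the embryonic groups, at means of 0.954, 1.13 and 0.833 UMIs per cell, and 1.06 in the adult, at a mean of 0.292. The tenth of cells with the most member UMIs held 48.0, 39.9 and 51.5% of them in the embryonic groups and 50.5% in the adult. In the adult 476 of 631 cells held 0 member UMIs and 129 held 1, so the share there cannot show concentration in few cells.

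Empty wells give the background of free RNA. The 36 empty wells held 3 member UMIs of 1008, or 2.98 per 1000 UMIs (exact 95% binomial interval 0.614 to 8.67, counting error only). The kept cells held 3.30 per 1000 in yolk sac, 4.11 in brain E12.5, 2.99 in brain E18.5 and 1.02 in adult brain. The adult empty wells held 0 member UMIs of 188 and the E18.5 empty wells 0 of 257. The interval for the empty wells covers the embryonic and adult rates, so free RNA was not separated from the cells by these wells.

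**Figure D2:**
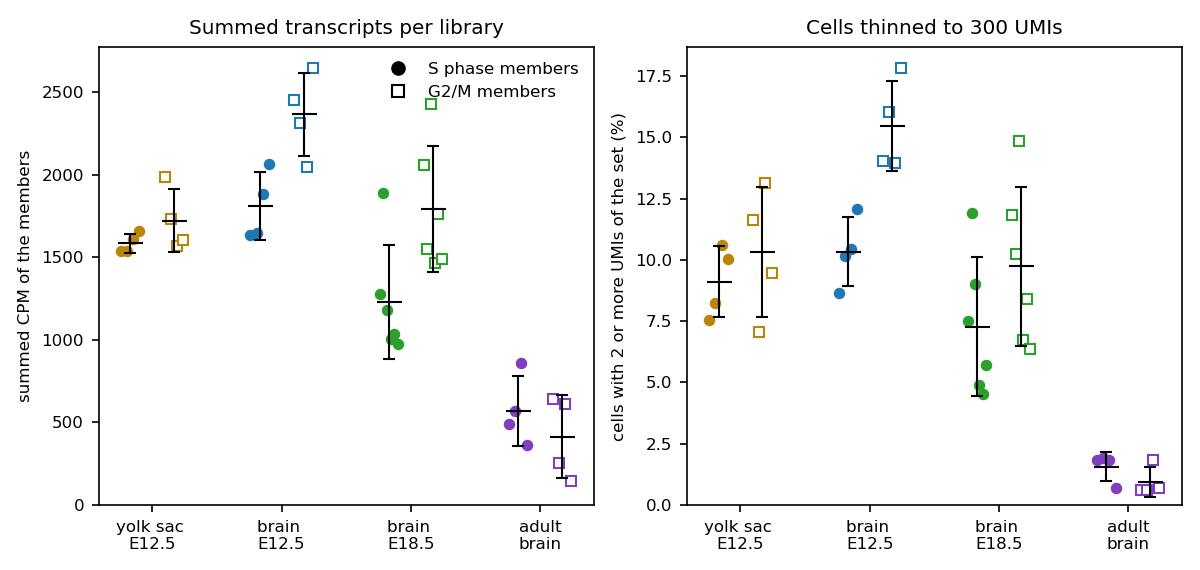
Summed S phase and G2/M levels (CPM) and shares of positive cells at 300 UMIs (percent) in each library of yolk sac E12.5, brain E12.5, brain E18.5 and adult brain; points are libraries and bars mark the mean and SD. Adult libraries lie below all embryonic libraries in both sums and both shares, and the E18.5 libraries spread most widely.

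Pooled over embryonic cells, most members were seen more often beside their own set. For each member, embryonic cells were split into those with at least 2 UMIs of other S phase members and none of G2/M, those with at least 2 UMIs of other G2/M members and none of S phase, and those with no UMI of any other member, all at 300 UMIs. The member itself was not counted in this split. Cells with other members of both sets are left out by the rule. The contexts therefore describe which members were seen together and cannot show how far the sets exclude each other. Of 18 S phase members, 15 were seen more often in the S phase context than in the G2/M context, the exceptions being Mcm4, Lig1 and Rrm1. Of 25 G2/M members, 24 were seen more often in the G2/M context, the exception being Nusap1, a spindle microtubule protein. The median S phase member was seen in 4.79% of S phase context cells, 1.27% of G2/M context cells and 1.10% of cells with no other member. The median G2/M member was seen in 1.72, 6.67 and 0.630% of these.

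Cdca8, a subunit of the chromosomal passenger complex, was seen in 31 of 147 G2/M context cells (21.1%), in 0 of 114 S phase context cells and in 1.33% of cells with no other member. Ube2c, the ubiquitin-conjugating enzyme of the anaphase-promoting complex, was seen in 28 of 138 (20.3%), 1 of 115 (0.870%) and 2.85%. Cdk1, the mitotic kinase, was seen in 20 of 145 (13.8%), 6 of 120 (5.00%) and 1.79%. These G2/M members were seen rarely in S phase context cells, which by the rule hold no other G2/M UMI. Cdk1 was the least one-sided of the 3. On the S phase side, Mcm2 was seen in 7 of 104 S phase context cells (6.73%), 1 of 156 G2/M context cells (0.641%) and 1.41% of cells with no other member. Pcna, the sliding clamp, was seen in 7 of 104 (6.73%), 2 of 157 (1.27%) and 2.62%. Mcm4 went against its set, at 5 of 109 (4.59%) in the S phase context and 10 of 165 (6.06%) in the G2/M context, and with counts this small single members are described only. At 500 UMIs the counts were 14 of 18 and 24 of 25. Within yolk sac alone 15 of 18 S phase and 16 of 25 G2/M members kept the pattern (2 and 3 the other way, the rest tied), within brain E12.5 alone 13 and 19 (4 and 3 the other way), and within brain E18.5 alone 8 and 24 (7 and 0 the other way).

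**Figure D3:**
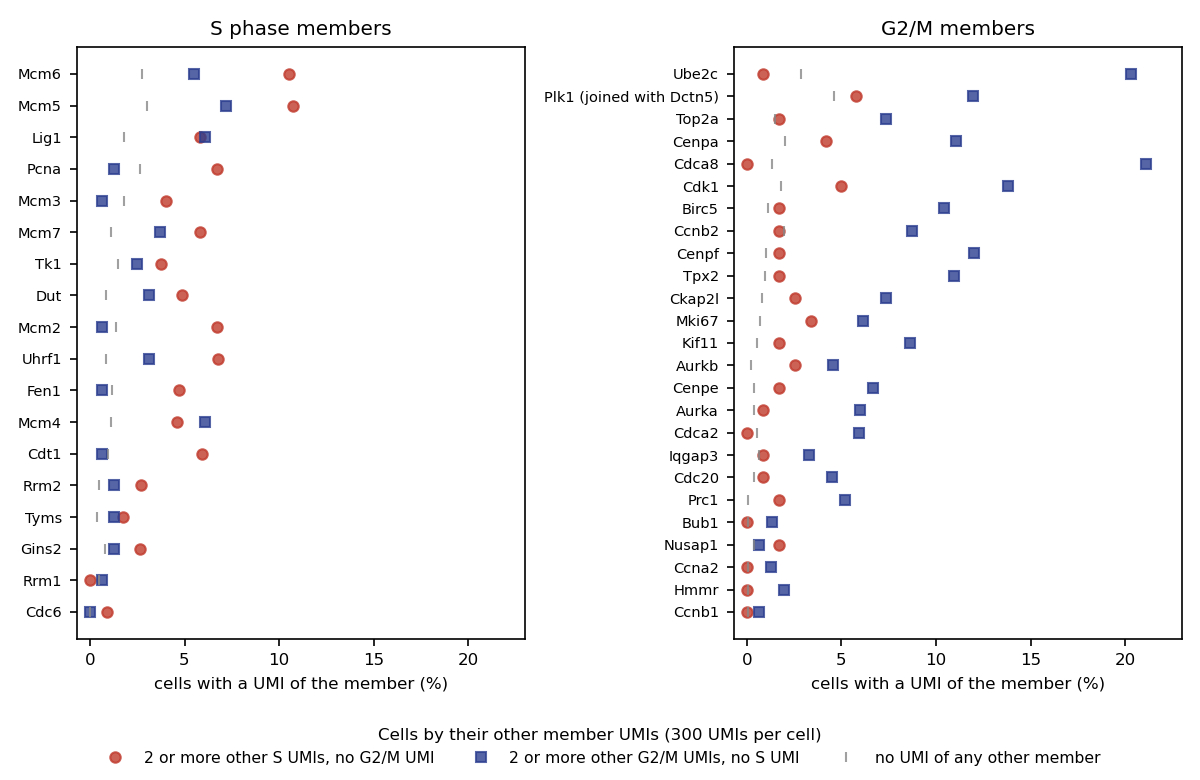
Share of embryonic cells (percent, thinned to 300 UMIs) with a UMI of each member, for S phase members (left) and G2/M members (right), among cells with 2 or more other S phase UMIs and none of G2/M (circles), cells with 2 or more other G2/M UMIs and none of S phase (squares) and cells with no other member (ticks). Circles lie right of squares for 15 of 18 S phase members and squares lie right of circles for 24 of 25 G2/M members.

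Per-gene comparisons used edgeR's quasi-likelihood test on UMIs summed per library, with Benjamini-Hochberg adjustment over all 4883 genes tested. Of the members, 31 passed the filter on low counts, 13 of S phase and 18 of G2/M. The other 12 held too few UMIs, between 30 and 152 over all libraries: the reductase subunits Rrm1 and Rrm2, Tyms, Gins2 and the loader Cdc6 of S phase, and the cyclins Ccnb1 and Ccna2, Cdc20, Nusap1, Prc1, Hmmr and Bub1 of G2/M. A member could pass through its embryonic libraries alone, so the counts over tested members do not stand for all 43.

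Between yolk sac and brain at E12.5 few differences of single members were detectable. The S phase members lay on both sides of 0, and the G2/M members were mostly somewhat lower in yolk sac without passing the test singly. Of the tested members, 0 of 13 S phase and 1 of 18 G2/M genes were called lower in yolk sac and none was called higher, where 8.81% of all tested genes were called lower and 7.04% higher. At an unadjusted p under 0.05 edgeR had 1 S phase and 4 G2/M members lower and 0 higher, and DESeq2 called 0 in either direction. The median log2 fold change was -0.15 for S phase (5 positive, 8 negative) and -0.47 for G2/M (2 positive, 16 negative), against -0.05 over all tested genes. The libraries of the tissues stood apart for 2 S phase and 0 G2/M members, and for 19.9% of all tested genes.

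The called gene was Ckap2l, which encodes a spindle protein. It stood at 51.8, 36.3, 45.3 and 55.6 CPM in yolk sac, against 134, 97.3, 51.4 and 101 CPM in brain E12.5, a log2 fold change of -0.998 ± 0.325 (SE) with adjusted p = 0.0279. Brain replicate 3 lay inside the yolk sac range, so the groups overlapped. The call was lost with batch as a covariate or within the shared sequencing batch (-0.79, adjusted p = 0.3796), and also without brain replicate 1, 2 or 4 or yolk sac replicate 2 or 3 (adjusted p between 0.0504 and 0.163). Mcm6 of the helicase stood at 155, 142, 243 and 197 CPM in yolk sac, against 192, 198, 184 and 127 CPM in brain E12.5 (0.10 ± 0.47, adjusted p = 0.931). Ube2c stood at 241, 258, 171 and 248 CPM in yolk sac, against 245, 255, 321 and 411 CPM in brain E12.5 (-0.38 ± 0.37, adjusted p = 0.598). Mcm6 and Ube2c both overlapped between the tissues. Pcna was lower in each yolk sac library, at 92.5 to 126 CPM against 136 to 148 CPM in brain E12.5, but did not pass the test (-0.28 ± 0.26, adjusted p = 0.578).

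In the brain, 10 members were lower at E18.5 than at E12.5. They included the helicase subunits Mcm2, Mcm5 and Mcm7, the licensing factor Cdt1 and the chromosome-segregation genes Cenpa, Birc5 and Cdca8, whereas Top2a, Cdk1, Tk1 and Pcna did not pass the test. At E18.5, 6 of 13 S phase and 4 of 18 G2/M members were called lower, where 13.4% of all tested genes were. None was called higher, where 11.1% of all tested genes were; at an unadjusted p under 0.05 edgeR had 0 S phase and 3 G2/M members higher, and DESeq2 called 0 and 1. The median log2 fold change was -0.78 for S phase and -0.29 for G2/M, against -0.03 over all tested genes, and 11 of 13 and 14 of 18 were negative. No library of 1 age fell in the range of the other for 3 S phase and 6 G2/M members, which held for 18.7% of all tested genes.

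Among the S phase genes, Dut, the dUTPase that keeps uracil out of DNA, stood at 12.6, 42.1 and 90.4 CPM in E18.5 libraries (lowest, median and highest), against 52.6, 88.0, 129 and 193 CPM in brain E12.5, and fell by 1.28 ± 0.45 on the log2 scale (adjusted p = 0.0386). Mcm2 stood at 22.1, 50.5 and 125 CPM in E18.5 libraries, against 121, 153, 150 and 149 CPM in those of E12.5, and fell by 1.23 ± 0.30 (adjusted p = 0.00182). Mcm7 stood at 42.5, 58.8 and 97.5 CPM in E18.5 libraries, against 129, 118, 176 and 153 CPM in those of E12.5, and fell by 1.12 ± 0.27 (adjusted p = 0.00167). Mcm7 did not overlap between the ages, Mcm2 overlapped through its highest E18.5 library, and Dut overlapped widely. The licensing factor Cdt1 (-0.95), the ligase Lig1 (-0.90) and Mcm5 (-0.85) were called too. Mcm6 was not called, at 66.4, 142 and 236 CPM in E18.5 libraries against 192, 198, 184 and 127 CPM at E12.5 (-0.25 ± 0.45, adjusted p = 0.727), and Mcm3 and Mcm4 were not called either (-0.34 ± 0.35 and -0.22 ± 0.30). Pcna had a log2 fold change of 0.00 ± 0.25.

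Among the G2/M genes, Cenpa, the histone variant of centromeres, stood at 40.1, 90.1 and 139 CPM in E18.5 libraries, against 227, 155, 167 and 328 CPM in those of E12.5, and fell by 1.28 ± 0.26 (adjusted p = 0.000293). Ube2c stood at 74.5, 140 and 196 CPM in E18.5 libraries, against 245, 255, 321 and 411 CPM in those of E12.5, and fell by 1.11 ± 0.35 (adjusted p = 0.0274). Birc5 (survivin, of the chromosomal passenger complex) stood at 41.7, 74.0 and 120 CPM in E18.5 libraries, against 136, 140, 167 and 184 CPM in those of E12.5, and fell by 0.98 ± 0.28 (adjusted p = 0.00805). None of these 3 overlapped between the ages. Cdca8, of the same complex as Birc5, fell by 0.94 ± 0.24 (adjusted p = 0.0037). The row of Plk1 and Dctn5 was not called, at 105, 199 and 244 CPM against 192, 275, 150 and 228 CPM (-0.18 ± 0.23, adjusted p = 0.615).

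A few G2/M members leaned the other way without passing the test. Iqgap3, a scaffold protein linked to proliferation, stood at 41.7, 62.0 and 95.6 CPM in E18.5 libraries, against 36.4, 20.6, 34.3 and 17.5 CPM in those of E12.5, without overlap (1.20 ± 0.46, adjusted p = 0.0526). Mki67, the proliferation antigen Ki-67, stood at 69.5, 104 and 233 CPM, against 93.1, 78.6, 12.9 and 43.8 CPM (0.95 ± 0.37, adjusted p = 0.0533). Both passed when the 2 ages were fitted alone (Iqgap3 adjusted p = 0.00993, Mki67 adjusted p = 0.0499), so their calls depend on the fit. The 2 ages share no sequencing batch and are linked only through yolk sac. With batch as a covariate 1 S phase and 0 G2/M members were called lower, where Cenpa had -1.20 (adjusted p = 0.109) and Birc5 -0.21 (adjusted p = 0.869), so age and batch cannot be told apart. A list of 8 neural genes differed with age as well. It summed to 88.3 to 207 CPM in E18.5 libraries and 451 to 567 CPM in brain E12.5. Of these 8, 4 were at 0 at E18.5 and 1 was at 0 in brain E12.5. Most of the sum was Nes, which averaged 415 CPM in brain E12.5, 138 CPM at E18.5 and 51.55 CPM in yolk sac. The part of these genes in the member changes was not tested.

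In adult brain most of the tested mitotic members were at or near 0 UMIs, and the thymidine kinase Tk1 and several helicase subunits were lower as well. Against E18.5, 7 of 13 S phase and 14 of 18 G2/M members were called lower, where 11.2% of all tested genes were, and none was called higher, where 10.3% were (0 at an unadjusted p under 0.05 by edgeR and 0 by DESeq2). The median log2 fold change was -1.44 for S phase and -2.37 for G2/M, against -0.03 over all tested genes (unchanged with members at 0 adult UMIs set to their bound), and all 18 tested G2/M members and 12 of 13 S phase members were negative. Adult and E18.5 libraries stood apart without overlap for 3 S phase and 12 G2/M members, and for 16.8% of all tested genes. All E18.5 and adult libraries came from the same sequencing batch, and library totals were lower in the adult. With every library thinned to the same total, 3 of 7 S phase and 7 of 9 G2/M members still tested were called lower, and with only these groups fitted 5 of 7 and 8 of 11 were.

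Tpx2, the activator of the Aurora A kinase on the spindle, had 0 UMIs in all 4 adult libraries, against 48.7, 72.3 and 138 CPM at E18.5 (lowest, median and highest; 86 UMIs). With 3 counts over the adult group as the floor (8.30 CPM), it was at least 9.74-fold lower in adult than in E18.5 libraries. Birc5 was at 0, 11.0, 0 and 0 CPM in adult libraries, against 41.7, 74.0 and 120 CPM at E18.5, which is 1 UMI against 84 and a ratio of 28.5-fold lower (exact 95% counting interval 4.98 to 1140; adjusted p = 2.69e-05). Cdca8 was at 10.1, 0, 10.4 and 0 CPM, against 51.6, 108 and 139 CPM, or 18.5-fold lower (5.00 to 155; adjusted p = 2.27e-06). None of these 3 overlapped between the groups. Mki67 had 3 adult UMIs against 126 (14.3-fold lower, 4.77 to 70.1) and Cdca2, a chromatin-bound phosphatase subunit, had 2 against 67 (11.4-fold lower, 3.03 to 95.9). On the log2 scale the topoisomerase Top2a had -3.06 ± 0.67, Ckap2l -2.89 ± 0.56, Cenpa -2.62 ± 0.54, the kinase Aurka -2.57 ± 0.72 and the cyclin Ccnb2 -2.17 ± 0.49. The motor Kif11 (-2.03), the kinetochore motor Cenpe (-1.99), Aurkb (-1.90) and the row of Plk1 and Dctn5 (-1.42) completed the G2/M calls. Of the G2/M members too sparse for the test, 5 had 0 adult UMIs, among them Prc1 of the central spindle (at least 4.42-fold lower) and the checkpoint kinase Bub1 (at least 2.04-fold lower).

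On the S phase side, Tk1, thymidine kinase, stood at 10.1, 11.0, 10.4 and 13.4 CPM in adult libraries, against 45.9, 106 and 153 CPM at E18.5, and fell by 3.17 ± 0.59 (adjusted p = 9.28e-05) without overlap. Fen1, the flap endonuclease of Okazaki fragments, stood at 20.1, 33.0, 0 and 26.8 CPM, against 27.7, 57.5 and 153 CPM, and fell by 1.82 ± 0.60 (adjusted p = 0.0241). Mcm4 stood at 0, 11.0, 52.0 and 13.4 CPM, against 49.8, 74.6 and 85.0 CPM, and fell by 1.79 ± 0.51 (adjusted p = 0.00901). Fen1 and Mcm4 each overlapped with E18.5 through 1 adult library, whereas Tk1 stood clear in every adult library. Mcm2 (-1.59), Pcna (-1.54), Mcm5 (-1.44) and Lig1 (-1.31) were called as well. Without adult replicate 1 the S phase count was 3 instead of 7.

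Several members kept adult UMIs. For Mcm6, Ube2c and Cenpf most of these lay in 1 library, while Mcm5, Mcm7, Pcna, Lig1 and Dut were seen in every adult library. Mcm6 stood at 30.2, 33.0, 364 and 40.2 CPM in adult libraries, against 66.4, 142 and 236 CPM at E18.5, and was not called (-0.28 ± 0.57, adjusted p = 0.785). Without adult replicate 3 it fell by 2.09 (adjusted p = 0.000925). Ube2c stood at 231, 22.0, 41.6 and 13.4 CPM, against 74.5, 140 and 196 CPM, and was not called (-0.77 ± 0.49, adjusted p = 0.299); without adult replicate 1 it fell by 2.39 (adjusted p = 0.000209). In both genes a single adult library lay above the whole E18.5 range while the other adult libraries lay below it. Dut was the only tested member with a positive value (0.91 ± 0.56, adjusted p = 0.269), at 90.5, 33.0, 177 and 26.8 CPM in the adult. Mcm3, Mcm7, Cdt1 and Uhrf1 of S phase, and Cdk1, Cenpf and Iqgap3 of G2/M, were negative and not called.

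**Figure D4:**
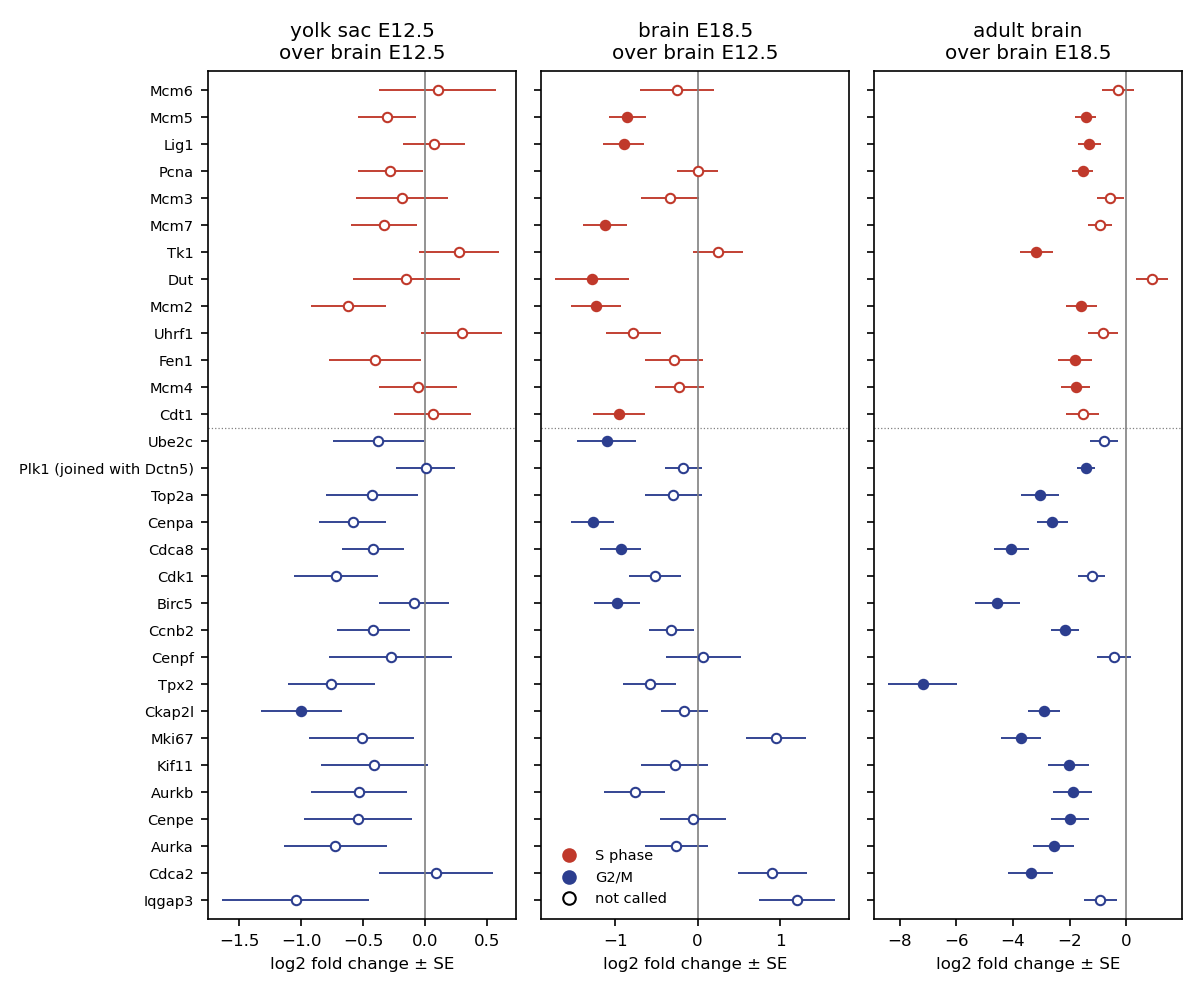
Log2 fold change with SE of each tested member for yolk sac over brain E12.5, brain E18.5 over brain E12.5 and adult brain over brain E18.5; filled points are called at an adjusted p under 0.05. The adult point of Tpx2 rests on 0 adult UMIs and is not a bound, and the G2/M members lie furthest below 0 in the adult comparison.

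In the adult these leftover UMIs were spread over many cells, with few UMIs in each. In adult replicate 3, Mcm6 had 35 UMIs in 28 of 163 cells (17.2%) with at most 3 in a cell, Cenpf, a kinetochore protein, had 20 UMIs in 18 cells (11.0%), and Dut had 17 UMIs in 17 cells (10.4%). Top2a had 0 UMIs in that library. In adult replicate 1, Ube2c had 23 UMIs in 21 cells (12.9%) with at most 2 in a cell. In embryonic cells Ube2c reached 14 UMIs in a yolk sac cell, 17 in a brain E12.5 cell and 10 in a brain E18.5 cell. The maxima are on full counts, and the embryonic groups held more cells and more UMIs per cell. Adult replicate 3 also stood apart in 4 monocyte markers, which summed to 1870 CPM there and to 0 to 53.6 CPM in the other adult libraries. Of these, Ly6c2 held all 188 adult UMIs and Ccr2, Plac8 and Fn1 were at 0, and their part in the levels of Mcm6 and Cenpf was not tested. In this library Cenpf and Dut were not seen more often beside Mcm6: Cenpf was seen in 3 of 28 cells with Mcm6 (10.7%) and in 15 of 135 cells without it (11.1%), and Dut was seen in 2 of 28 (7.14%) and 15 of 135 (11.1%). In the embryo Dut was seen more often beside Mcm6, in 24.4% of yolk sac cells with Mcm6 and 7.48% of those without it, in 28.7% and 12.5% of brain E12.5 cells, and in 12.9% and 3.31% of brain E18.5 cells. Cenpf was seen in 13.0% of cells with Mcm6 and 6.39% of those without it in yolk sac, in 13.4% and 9.27% in brain E12.5, and in 6.03% and 6.28% in brain E18.5, where it was no more frequent, as in the adult library. Cdk1 was seen in 5 of 18 cells of adult replicate 3 with Cenpf (27.8%) and in 8 of 145 without it (5.52%), and in 2 of 17 with Dut (11.8%) and 11 of 146 without it (7.53%). Embryonic cells also held Cdk1 more often beside Cenpf, in 27.5% of yolk sac cells with Cenpf and 11.3% of those without it. The values were 43.8% and 15.0% in brain E12.5, and 27.4% and 7.42% in brain E18.5. These pairs were chosen after their values were seen.

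Set against brain E12.5, the adult libraries were lower in 10 of 13 S phase and 16 of 18 G2/M members, where 20.7% of all tested genes were called lower. None was called higher, where 17.8% of all tested genes were (0 at an unadjusted p under 0.05 by edgeR and 0 by DESeq2). This comparison shares its groups with the previous comparisons and is given for its own values. Its groups share no sequencing batch, so age and batch cannot be told apart; with batch as a covariate 9 of 13 S phase and 9 of 18 G2/M members were called lower. The median log2 fold changes were -2.05 for S phase and -2.57 for G2/M, against -0.07 over all tested genes. Adult and brain E12.5 libraries stood apart without overlap for 10 S phase and 12 G2/M members, and for 34.3% of all tested genes.

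Cdt1 stood at 10.1, 0, 20.8 and 26.8 CPM in adult libraries, against 82.9, 59.9, 85.7 and 105 CPM in brain E12.5, and fell by 2.49 ± 0.54 (adjusted p = 0.000267). Mcm2, at 10.4 to 33.0 CPM in adult libraries against 121 to 153 CPM in brain E12.5, fell by 2.82 ± 0.49 (adjusted p = 1.18e-05), and Tk1 fell by 2.93 ± 0.62 (adjusted p = 0.000181). All 3 stood clear of the brain E12.5 libraries. Tpx2 was at least 13.8-fold lower in adult libraries (0 UMIs against 171), Birc5 was 54.1-fold lower (9.60 to 2145) and Cdca8 was 34.3-fold lower (9.41 to 285). Not called were Mcm3, Mcm6 (-0.54, adjusted p = 0.493), Dut (-0.37), Cenpf and Iqgap3. Cenpf stood at 20.1, 0, 208 and 13.4 CPM in adult libraries, against 105, 74.9, 94.3 and 52.5 CPM (-0.37 ± 0.61, adjusted p = 0.668), and without adult replicate 3 fell by 2.76 (adjusted p = 0.00125). Mcm6 without that library fell by 2.32 (adjusted p = 9.33e-05).

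Other genes of the same pathways were counted in the same way. A list of 52 further replication genes had 20 tested and a list of 67 further mitosis genes had 22. In yolk sac over brain E12.5 none of either list was called by edgeR or DESeq2, with 2 replication genes higher and 1 mitosis gene lower at an unadjusted p under 0.05. At E18.5 over brain E12.5, 4 of 20 replication genes and 6 of 22 mitosis genes were called lower and none higher, where 13.4% of all tested genes were called lower. Among them were Pole3, a subunit of DNA polymerase epsilon, at 19.4 ± 14.3 against 70.7 ± 10.3 CPM (-1.84, adjusted p = 0.00066), and the CDK-binding Cks1b, at 62.7 ± 15.2 against 146 ± 27.9 CPM (-1.22, adjusted p = 0.000786). In adult over E18.5 libraries, 5 of 20 and 14 of 22 were called lower and none higher, where 11.2% of all tested genes were called lower. The median log2 fold change there was -0.53 for the replication list and -2.10 for the mitosis list, against -0.03 over all tested genes. The transcription factor E2f1 had no adult UMI (at least 7.02-fold lower), and the condensin subunit Ncapd2 had 1 (26.2-fold lower, 4.56 to 1047). In adult over brain E12.5 libraries 11 of 20 and 16 of 22 were called lower, where 20.7% of all tested genes were. No difference between these lists and the members was tested. The only call in the other direction was Espl1, separase, at 79.2 ± 14.8 CPM in adult brain against 33.6 ± 7.64 CPM in brain E12.5 (SD, n = 4 each; 1.30, adjusted p = 0.0188).

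Within each embryonic group, cells with member transcripts were then set against cells without them. Cells with at least 2 UMIs of any of the 43 members among 300 are termed cycling cells (139 in yolk sac, 203 in brain E12.5 and 187 in brain E18.5), and cells with none are termed other cells. DNA content was not measured, and some other cells will be cycling cells whose members were missed. The adult libraries held 26 such cells in all and did not enter. The members define the classes, so only the other genes were tested: 2918 genes, on summed full counts with the library as a block.

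All 12 tested further replication genes and all 22 tested further mitosis genes had positive log2 fold changes in cycling over other cells of each embryonic group. Most of the mitosis genes and about as many replication genes as not were called higher. The median depth was 1651 UMIs in cycling and 1502 in other cells of yolk sac, 1873 and 1718 in brain E12.5, and 1060 and 948 in brain E18.5. Of 12 tested further replication genes, 7 were higher in cycling cells of yolk sac, 6 of brain E12.5 and 6 of brain E18.5. Of 22 tested further mitosis genes, 18, 15 and 17 were higher, and none of either list was lower by edgeR, at an unadjusted p under 0.05 or by DESeq2. DESeq2 called fewer in brain E12.5, 2 of 12 and 7 of 22. Over all tested genes, 6.82% were called higher and 6.92% lower in yolk sac, 1.95% and 1.54% in brain E12.5, and 2.74% and 3.22% in brain E18.5. The median log2 fold change of the mitosis list was 1.90 in yolk sac, 1.47 in brain E12.5 and 2.51 in brain E18.5, against 0.01, -0.03 and -0.11 over all tested genes.

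Among the genes with the largest rise, which were chosen by that rise, Hist1h1b, a linker histone made in S phase, averaged 680 ± 222 CPM in cycling cells and 109 ± 125 CPM in other cells of yolk sac, 612 ± 164 and 92.0 ± 61.0 CPM in brain E12.5, and 1536 ± 433 and 107 ± 34.9 CPM in brain E18.5 (SD, n = 4, 4 and 6 libraries). It was higher in cycling cells of all 14 libraries, with log2 fold changes of 2.64, 3.00 and 3.70. Racgap1, of the cytokinetic spindle, rose by 3.33 ± 0.47 in yolk sac, 1.33 ± 0.34 in brain E12.5 and 2.83 ± 0.36 in brain E18.5. The CDK inhibitor gene Cdkn2c rose by 3.40 ± 0.54 in brain E18.5, with 207 ± 49.8 CPM in cycling and 17.0 ± 13.9 CPM in other cells. It also rose by 4.62 ± 0.87 in brain E12.5, where other cells averaged only 1.06 CPM against 63.2 CPM in cycling cells. In yolk sac its value was 1.73 ± 0.68 and was not called (edgeR adjusted p = 0.0712).

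A minority of the microglia markers were lower in cycling cells, and Csf1r was the one called in all 3 groups. Csf1r, the receptor that microglia depend on, averaged 2252 ± 412 CPM in cycling and 3776 ± 519 CPM in other yolk sac cells, 4006 ± 192 and 5353 ± 574 CPM in brain E12.5, and 7280 ± 627 and 8180 ± 379 CPM in brain E18.5. It was lower in cycling cells of every library entered, with log2 fold changes of -0.82 ± 0.10, -0.45 ± 0.09 and -0.30 ± 0.08 (adjusted p = 1.84e-10, 0.000508 and 0.00581). Of 12 tested microglia markers, 2 were lower in yolk sac, 3 in brain E12.5 and 2 in brain E18.5, and none was higher, where 6.92, 1.54 and 3.22% of all tested genes were called lower; DESeq2 called 2, 3 and 0 lower. The list was divided in yolk sac, with 6 of 12 negative and a median log2 fold change of 0.02, against 10 of 12 and -0.24 in brain E12.5 and 12 of 12 and -0.24 in brain E18.5. Outside the lists, Cd14 fell by 1.65 ± 0.39 in brain E12.5 (34.9 ± 7.52 CPM in cycling and 113 ± 19.8 CPM in other cells). Spp1, osteopontin, fell by 2.35 ± 0.60 in brain E18.5 (38.8 ± 73.6 and 233 ± 216 CPM), a gene whose libraries varied widely.

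Yolk sac cycling cells also differed in markers of cell type. Clec10a, a lectin of macrophages, averaged 124 ± 102 CPM in cycling and 458 ± 182 CPM in other cells (-2.03 ± 0.31), and F13a1 (-0.75 ± 0.26) and Ms4a7 (-1.01 ± 0.25) were lower with it, which made 3 of the 6 tested yolk sac and border macrophage markers. Conversely, the progenitor marker Cd34 rose by 1.81 ± 0.49 (1 of 2 tested markers of that type). Of 4 tested granulocyte precursor genes 3 were positive and 1 was negative, and 2 were called higher, Mpo (1.80 ± 0.51) and Prtn3 (1.89 ± 0.30). None of these 6 genes was called in cycling cells of brain E12.5 or brain E18.5, but the yolk sac effect differed from that of brain E12.5 only for Clec10a (log2 difference -5.00 ± 1.37, adjusted p = 0.0436), which stood at 8.33 CPM in cycling and 0 CPM in other brain E12.5 cells. Over all tested genes that difference passed in 12 genes upward (0.411%) and 20 downward (0.685%), and the difference between brain E18.5 and brain E12.5 passed in 1 gene upward (0.0343%) and 0 downward by edgeR (91 downward at an unadjusted p under 0.05, 0 by DESeq2). The part of unequal cell type in the yolk sac result was not tested. The counts rest on few cells in each library: without yolk sac replicate 2 or 4 the higher calls numbered 95 or 127 instead of 199, without any of the 4 brain E12.5 libraries the lower calls numbered 3 to 27 instead of 45, without brain E12.5 replicate 1 or 2 the higher calls numbered 22 or 35 instead of 57, and without E18.5 replicate 2, 3, 4 or 5 the lower calls numbered 45 to 62 instead of 94.

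**Figure D5:**
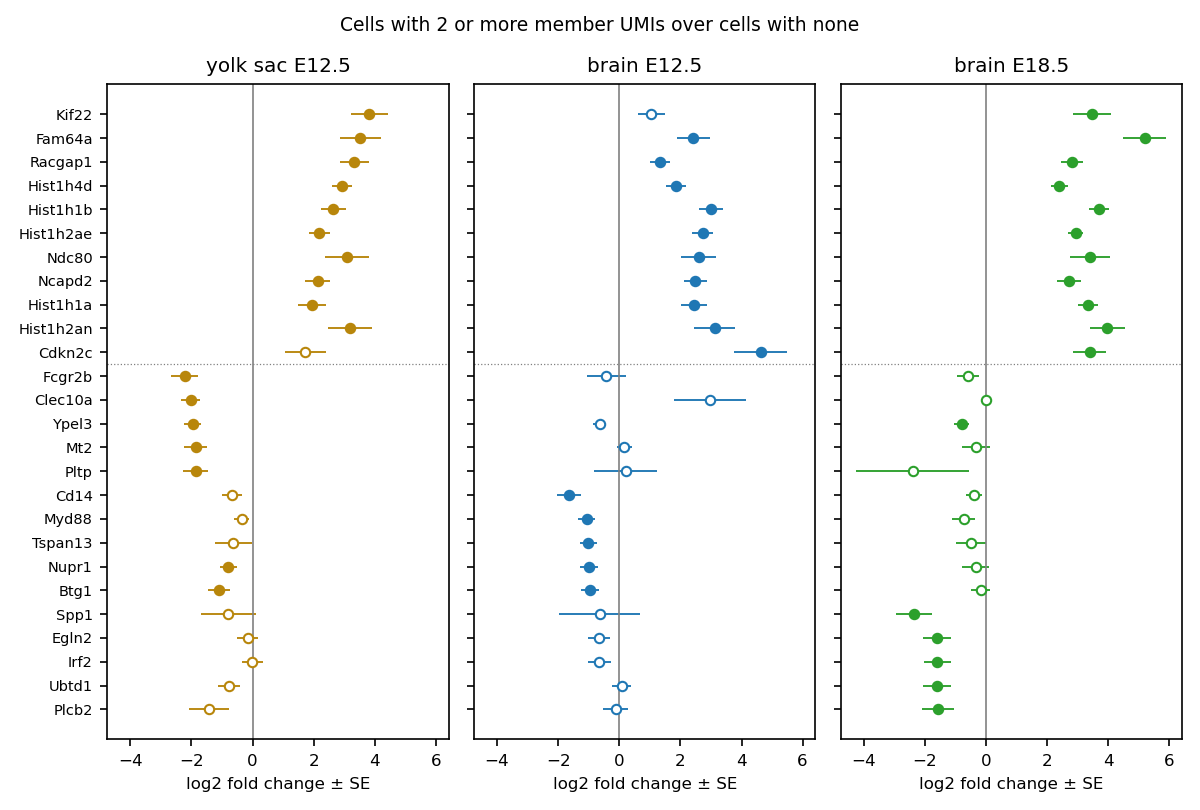
Log2 fold change with SE of cycling over other cells in yolk sac E12.5, brain E12.5 and brain E18.5 for the up to 5 genes with the largest rise and fall in each group (filled points are called at an adjusted p under 0.05). The mitosis and histone genes above the dotted line lie above 0 in all 3 groups, while no gene below that line was called in all 3 groups.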

How the data were processed

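The authors deposited UMI counts per gene and well, one table for all wells; per the submitters' processing notes the reads were demultiplexed with bcl2fastq 2.15.0.4 and the build was mm9, while alignment, UMI collapsing and gene annotation were not given in the sources used here. Every count was a whole number, with a maximum of 256 per gene and well. Wells with 1 sorted cell and at least 300 UMIs were kept, which left out 408 of 3420, and counts were summed per library and given as UMIs per 1000000 of that sum (CPM). No doublet caller was run, since wells were sorted for 1 cell.

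Counts were tested with edgeR 4.0.16 (limma 3.58.1, R 4.3.3): TMM scaling, filterByExpr, robust quasi-likelihood fit of all 18 libraries by group, Benjamini-Hochberg adjustment over all 4883 genes tested and calls at an adjusted p under 0.05. SE is the absolute log2 fold change over the square root of F. Cells were thinned to 300 UMIs without replacement (numpy 2.4.6). Cycling and other cells were compared with the library as a block over 2918 genes. On counts simulated with 1 fixed spread for all genes, 98.4% of 4-fold changes were recovered for yolk sac over brain E12.5 (4464 genes). For adult over E18.5 92.2% were recovered (4473 genes). Of the calls, 5.58 and 6.35% were false in that order. In cycling cells 48.4, 62.0 and 46.2% of 2-fold changes were recovered in yolk sac, brain E12.5 and brain E18.5 (2751 genes each). Of those calls, 4.30, 3.39 and 8.60% were false.

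The members and all lists were chosen with earlier results of these data known. The genes named with values are, per comparison and phase, the called members (at most 3) that changed most and the tested member with the highest mean level among those not called; others given are for context. Cycling comparisons name up to 5 genes in each direction per group. Promoter coordinates are of build GRCm38.p6, not of the build of the counts. Alternatives were RLE scaling, DESeq2 1.42.0, no filter, 500 UMIs, batch as a covariate, plate sums, thinned libraries, other UMI minimums and leaving out each library.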

Additional observations from a re-analysis of the deposited data

Results flagged for a closer look

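In 61 groups of 4 to 6 libraries the highest or lowest library was checked for a gap to the rest that is wide for the group's range. For continuous values chance alone flags about 1 in 20 such groups. That rate does not hold for groups of few counts, such as the adult shares and adult Birc5. In brain E18.5, replicate 2 had a summed S phase level of 1891 CPM, with the other 5 libraries between 974 and 1280 CPM. In adult brain, replicate 4 had 0.680% S phase positive cells, with the others between 1.84 and 1.90%, and replicate 3 had 1.84% G2/M positive cells, with the others between 0.614 and 0.680%. These shares stand for few cells, since the 4 adult libraries held 10 S phase and 6 G2/M positive cells in all.

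Single members stood apart in adult libraries. Mcm6 was at 364 CPM and Cenpf at 208 CPM in replicate 3, against 30.2 to 40.2 CPM and 0 to 20.1 CPM in the other adult libraries. Ube2c was at 231 CPM in replicate 1, against 13.4 to 41.6 CPM, and Birc5 was at 11.0 CPM in replicate 2, where 1 UMI was counted, against 0 in the others. In brain E12.5, Mcm2 was at 121 CPM in replicate 1, against 149 to 153 CPM in the others.

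For 4 of the named genes the effect of cycling over other cells differed between yolk sac and brain E12.5 in the same edgeR model. The log2 difference, yolk sac minus brain E12.5, was 2.77 ± 0.78 for the kinesin Kif22 (adjusted p = 0.0482), -2.03 ± 0.45 for the metallothionein Mt2 (adjusted p = 0.0103), -1.32 ± 0.37 for Ypel3 (adjusted p = 0.0484) and -5.00 ± 1.37 for Clec10a (adjusted p = 0.0436). The Clec10a value depends on brain E12.5 levels of 8.33 and 0 CPM and is not a bound.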

How the results depend on the processing

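No paired analysis was possible because replicate numbers were given in accession order and pair no libraries. Thinning every library to the smallest total, which removes counts, left 1 S phase and 2 G2/M members lower at E18.5 over brain E12.5, 3 and 7 in adult over E18.5, and 4 and 8 in adult over brain E12.5. With batch as a covariate these were 1 and 0 at E18.5 over brain E12.5, and 9 G2/M members in adult over brain E12.5. Plate sums left 2 S phase members at E18.5 over brain E12.5. Fitting only the groups compared gave 8 and 9 G2/M members lower in adult over E18.5 and over brain E12.5. In yolk sac over brain E12.5 the 1 G2/M call became 0 without the filter, with batch as a covariate, within the shared batch, with plate sums, with thinning and with DESeq2. G2/M members called higher at E18.5 numbered 2 with RLE, 2 at 500 UMIs per cell, 2 when the ages were fitted alone and 1 with DESeq2, against 0. The cause was not tested.

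Leaving out 1 library gave 0 to 1 G2/M members lower in yolk sac, 4 to 6 S phase and 3 to 4 G2/M members lower and 0 to 2 G2/M members higher at E18.5, 3 to 7 and 12 to 15 lower in adult over E18.5, and 9 to 11 and 15 to 17 in adult over brain E12.5. The sign of a few uncalled values turned: Mcm6 in yolk sac over brain E12.5 was -0.079 with batch as a covariate and -0.079 within the shared batch, and without 1 library it ran from -0.051 (yolk sac replicate 3) to 0.21 (yolk sac replicate 2), with -0.0024 without brain replicate 4; Mcm6 in adult over E18.5 was 0.034 without adult replicate 1 and 0.0030 without replicate 2, but -2.09 without replicate 3; Cenpf in adult over brain E12.5 was 0.053 without adult replicate 2 and -2.76 without replicate 3.

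Shares follow depth and the UMI minimum. In the order yolk sac, brain E12.5, brain E18.5 and adult, S phase shares were 16.7, 19.8, 14.1 and 4.26% at 500 UMIs, 35.4, 53.2, 25.9 and 6.23% without thinning, 28.7, 32.4, 23.6 and 15.0% with at least 1 UMI, and 4.18, 3.50, 2.58 and 0.153% with at least 3. G2/M shares were 17.9, 22.5, 15.1 and 3.94%, 38.5, 54.6, 25.6 and 4.65%, 29.5, 35.7, 26.6 and 10.9%, and 5.37, 8.30, 5.51 and 0.153%. A second random draw gave 10.0, 9.50, 6.41 and 1.57% for S phase. The adult share was lowest in each of these settings, while yolk sac was above brain E12.5 in S phase in the second draw and with at least 3 UMIs. Without the row of Plk1 and Dctn5, chosen after seeing the data, G2/M shares were 9.43, 14.2, 9.08 and 0.614%. Leaving out 1 library, S phase shares ran 8.62 to 9.64, 9.76 to 10.9, 6.34 to 7.83 and 1.45 to 1.86%, and G2/M shares 9.38 to 11.4, 14.7 to 16.0, 8.71 to 10.4 and 0.642 to 1.05%.

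Calls in cycling cells were the least stable. On thinned counts 11 genes were higher and 28 lower in yolk sac, 5 and 5 in brain E12.5, and 14 and 10 in brain E18.5. DESeq2 gave 124 higher in yolk sac, 32 higher and 13 lower in brain E12.5, and 25 lower in brain E18.5; without the filter 115 were higher in yolk sac; in brain E18.5 60 were lower with RLE and 235 with at least 3 member UMIs. Leaving out 1 library gave 95 to 153 higher and 144 to 218 lower in yolk sac, 22 to 51 and 3 to 27 in brain E12.5, and 54 to 75 and 45 to 77 in brain E18.5. Over all genes, the 1195 calls at E18.5 over brain E12.5 became 332 with batch as a covariate, 660 with plate sums and 621 with thinning; the 774 in yolk sac became 493 with plate sums and 377 with thinning; the 1050 in adult over E18.5 became 698 and 692; and the 1883 in adult over brain E12.5 became 910 with batch as a covariate and 1060 with thinning. Adult cells held a median of 521 UMIs, which limits what can be seen of any single member there.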

Other observations

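Genes outside the lists also differed between cycling and other cells; those named here were chosen after their values were seen. Apoe, the main lipid carrier of macrophages, averaged 12722 ± 2517 CPM in cycling and 26172 ± 1840 CPM in other yolk sac cells, 14460 ± 353 and 18785 ± 1777 CPM in brain E12.5, and 14465 ± 2829 and 21283 ± 3217 CPM in brain E18.5 (SD, n = 4, 4 and 6 libraries). It was lower in cycling cells of all libraries entered, with log2 fold changes of -1.13 ± 0.09, -0.42 ± 0.09 and -0.70 ± 0.08, and the yolk sac effect was larger than that of brain E12.5 (log2 difference -0.71 ± 0.13, edgeR adjusted p = 0.000736). Sepp1, a secreted selenium carrier, had log2 fold changes of -1.30 ± 0.11, -0.50 ± 0.11 and -0.70 ± 0.09 in the same order. Leaving out 1 library, 0 to 11 genes passed upward and 6 to 27 downward in the difference yolk sac minus brain E12.5, against 12 and 20 with all libraries.

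In the upward direction, Srm, spermidine synthase, averaged 331 ± 130 CPM in cycling and 99.8 ± 41.6 CPM in other yolk sac cells (1.65 ± 0.28), against 291 ± 82.5 and 212 ± 41.6 CPM in brain E12.5 (0.29 ± 0.23). The mitochondrial chaperonin Hspd1 averaged 320 ± 132 and 83.4 ± 21.4 CPM in yolk sac (1.84 ± 0.30), against 211 ± 21.1 and 178 ± 13.2 CPM in brain E12.5 (0.16 ± 0.26). Between brain E18.5 and brain E12.5 the effect of cycling differed in 1 gene, the tubulin gene Tuba1c (log2 difference 1.20 ± 0.27, adjusted p = 0.0397). These yolk sac values come from libraries whose cycling cells also held more Cd34, Mpo and Prtn3, and the part of cell type was not tested.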
